A study of Homo sapiens and Mus musculus with 8 samples.

Results

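The APOBEC3 cytidine deaminases were described in 2 human colorectal cancer lines, KM12 and LS174T, as the 7 genes whose Ensembl identifiers carry the symbols APOBEC3A, APOBEC3B, APOBEC3C, APOBEC3D, APOBEC3F, APOBEC3G and APOBEC3H, out of 60483 genes in the deposited count table. All 7 were found. They were selected by symbol with earlier results on these same libraries known, so the values below describe these libraries and are no independent support for a pattern. Each line was sequenced as cells in culture and as a xenograft, a tumor grown from its cells in a mouse, and each in 2 states of GNAS, the gene of the stimulatory G protein alpha subunit. The series title frames the question as dependence of tumors on mutant GNAS.

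The KM12 groups were the GNAS knockout and the parental line, whose labels name the GNAS R201H mutation. The LS174T groups were GNAS R201H with Dox, written Dox (+), and without it, written Dox (-). With 2 environments this gives 8 groups of 1 library each. The labels give no clone number, no animal number and no pooling, and they do not say what Dox induces. GNAS itself was at 297 CPM (counts scaled to library size) in KM12 knockout culture, against 1117 CPM in parental culture, and at 901 CPM in the knockout xenograft, against 1387 CPM in the parental xenograft. In LS174T it was at 1742 CPM in Dox (+) culture, against 690 CPM in Dox (-) culture, and at 690 CPM in the Dox (+) xenograft, against 584 CPM in the Dox (-) xenograft. GNAS was thus lower in the knockout than in the parental line, and higher in Dox (+) than in Dox (-), in both environments. The xenograft pairs were closer than the culture pairs, and in LS174T xenografts the levels differed little.

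Libraries held 15924846 to 23124811 counts in xenografts and 31868711 to 37735085 in cultures. The epithelial gene EPCAM was present in all of them (516 to 762 CPM), and the 10 epithelial markers summed to 6682 to 9734 CPM in xenografts and 9097 to 27076 CPM in cultures. CD3D, CD3E and CD3G of T cells, PTPRC of leukocytes and TYROBP of myeloid cells were at 0 to 0.0877 CPM. The 10 lymphocyte markers summed to 2.52 to 6.01 CPM in xenografts and 0.490 to 1.96 CPM in cultures. The 10 fibroblast markers summed to 5.42 to 267 CPM in xenografts and 8.44 to 13.7 CPM in cultures. The top of the first range is the KM12 parental xenograft, where COL3A1 alone had 220 CPM, and that library stands apart. The 10 myeloid and leukocyte markers summed to 7.94 to 767 CPM in xenografts and 38.5 to 314 CPM in cultures, and LYZ alone reached 764 CPM in the KM12 knockout xenograft.

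APOBEC3 enzymes turn cytosine into uracil in single-stranded DNA. They restrict retroviruses and retroelements, and APOBEC3A and APOBEC3B are also known as sources of C-to-T and C-to-G mutations at TC sites in tumors. APOBEC3G, APOBEC3F, APOBEC3D and APOBEC3H are best known for entering HIV particles that lack Vif. Several members are induced by interferon, and APOBEC3B is known to respond to NF-kB signaling and to repression by the DREAM complex.

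The 7 genes lie side by side on the plus strand of chromosome 22 (GRCh38, GENCODE release 29), from the start of APOBEC3A at 38952741 to the end of APOBEC3H at 39104067. The zinc-binding core of each, the catalytic fold of the family, was located in the coding sequence as a histidine, any residue and a glutamate, then 22 to 30 residues, a proline and a cysteine, and another cysteine after 2 to 4 residues. APOBEC3A, APOBEC3C and APOBEC3H have 1 core, and APOBEC3B, APOBEC3D, APOBEC3F and APOBEC3G have 2. The coding bases of 5 distinct cores are shown because they bear on how well short reads of these genes can be told apart. Each lies within 1 exon, runs 5′ to 3′ on the plus strand, and has in capitals the bases that differ from the closest core of another member.
APOBEC3A core and APOBEC3B second core, chr22:38961420-38961530 and chr22:38991365-38991475: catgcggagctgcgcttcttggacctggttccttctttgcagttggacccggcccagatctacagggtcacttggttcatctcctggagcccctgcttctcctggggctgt
APOBEC3B first core and APOBEC3F first core, chr22:38985833-38985937 and chr22:39044962-39045066: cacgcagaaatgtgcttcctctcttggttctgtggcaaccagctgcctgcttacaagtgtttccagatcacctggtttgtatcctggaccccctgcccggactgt
APOBEC3C core, chr22:39017787-39017891, compared with APOBEC3D second core: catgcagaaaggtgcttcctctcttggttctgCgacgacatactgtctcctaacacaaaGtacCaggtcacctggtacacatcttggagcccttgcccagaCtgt
APOBEC3D second core and APOBEC3F second core, chr22:39031715-39031819 and chr22:39052095-39052199: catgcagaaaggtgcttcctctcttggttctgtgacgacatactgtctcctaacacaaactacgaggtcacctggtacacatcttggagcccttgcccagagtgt
APOBEC3H core, chr22:39101246-39101350, compared with APOBEC3G first core: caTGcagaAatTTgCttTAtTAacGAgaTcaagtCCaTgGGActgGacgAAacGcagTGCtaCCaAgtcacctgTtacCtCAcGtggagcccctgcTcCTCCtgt

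The first sequence was identical in APOBEC3A and APOBEC3B over 111 bases, and the same held for the APOBEC3B and APOBEC3F first cores and the APOBEC3D and APOBEC3F second cores over 105 bases. The APOBEC3C core differed from its closest relative at 4 bases, and the APOBEC3H core at 39. Over coding sequences, APOBEC3A and APOBEC3B were 94.6% identical in their best local alignment, and APOBEC3C and APOBEC3F 90.3%. Of all 100-base windows of the reference transcript, 36.5% in APOBEC3B, 13.5% in APOBEC3F, 12.7% in APOBEC3A, 11.3% in APOBEC3G and 9.18% in APOBEC3D occurred unchanged in another member. The share was 0% in APOBEC3C and APOBEC3H. In APOBEC3D the share was 84.4% when other genes were counted too, mostly AL022318.4, an annotated gene that spans APOBEC3C and APOBEC3D. Counts of APOBEC3A, APOBEC3B, APOBEC3D, APOBEC3F and APOBEC3G are therefore uncertain to the extent that the authors' counting dropped or split such reads. APOBEC3A and APOBEC3B overlap by 10432 bp on the same strand in this annotation, and the antisense gene APOBEC3B-AS1 overlaps APOBEC3B by 1246 bp.

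**Figure D1:**
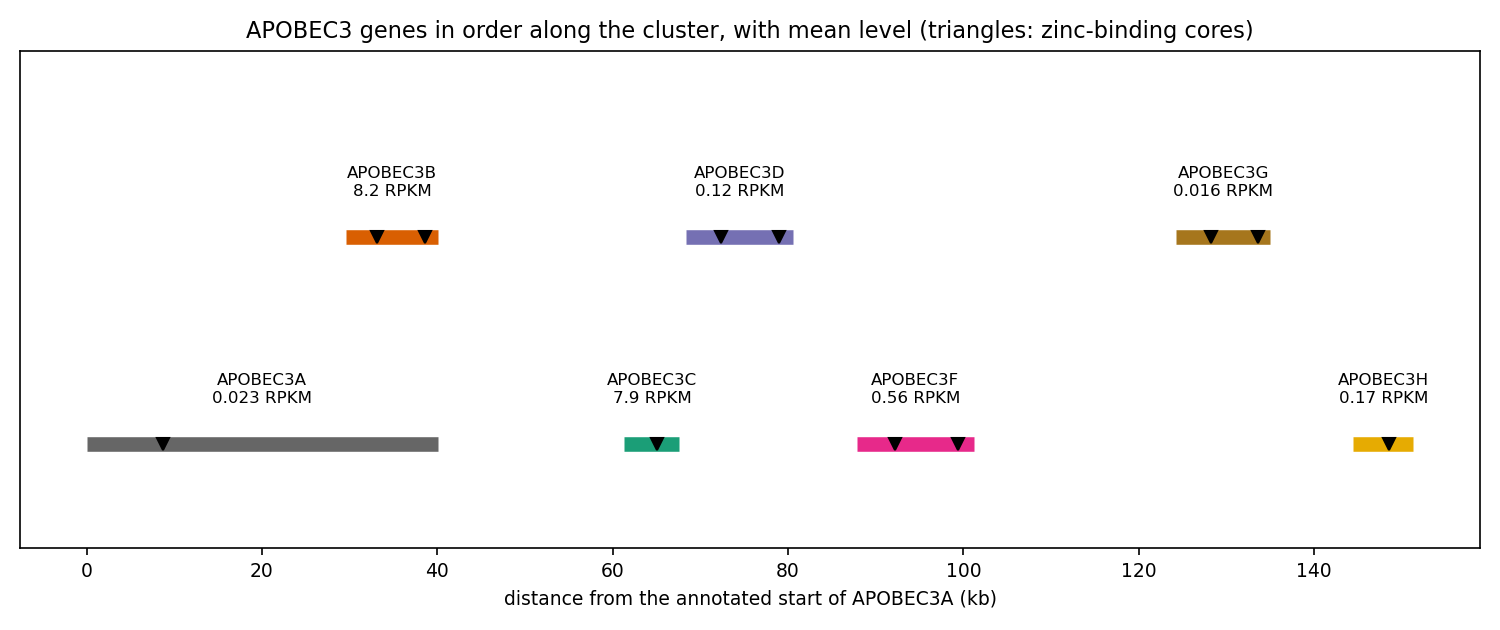
Map of the 7 APOBEC3 genes by distance from the annotated start of APOBEC3A (kb), with bars for gene bodies, triangles for zinc-binding cores and each gene's mean level over 8 libraries (RPKM) above its bar. The annotated body of APOBEC3A reaches over that of APOBEC3B, and the highest means belong to APOBEC3B (8.2 RPKM) and APOBEC3C (7.9 RPKM).

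Levels were compared between members as RPKM, CPM divided by the kilobases of annotated exon. APOBEC3B averaged 8.16 RPKM over the 8 libraries (range 0.837 to 15.8) and APOBEC3C averaged 7.88 RPKM (range 0.877 to 17.2). These ranges overlap almost fully, so the first places in the order do not differ beyond their spread. APOBEC3F followed at 0.564 RPKM (range 0.250 to 1.30). It was below APOBEC3B and below APOBEC3C in every library. Its range overlaps that of APOBEC3H, which was the higher of the pair in both LS174T cultures. The other 4 members had few counts, with averages of 0.174 RPKM for APOBEC3H, 0.121 RPKM for APOBEC3D, 0.0232 RPKM for APOBEC3A and 0.0160 RPKM for APOBEC3G, and their ranges overlap. The median of the 16070 genes tested was 4.33 RPKM. APOBEC3B lay above 66.3% of them, APOBEC3C above 65.6% and APOBEC3F above 13.2%.

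Which member led differed between libraries. APOBEC3B made up 5.19% of the family's RPKM in LS174T Dox (+) culture and 7.21% in Dox (-) culture, where APOBEC3C made up 88.9% and 88.5%. In LS174T xenografts APOBEC3B made up 38.3% with Dox and 63.1% without. In KM12 APOBEC3B was the leading member throughout, at 59.8% in the knockout xenograft, 81.5% in the parental xenograft, 85.9% in knockout culture and 78.3% in parental culture. The summed family level ran from 5.87 RPKM in KM12 parental culture to 27.5 RPKM in the LS174T Dox (+) xenograft.

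**Figure D2:**
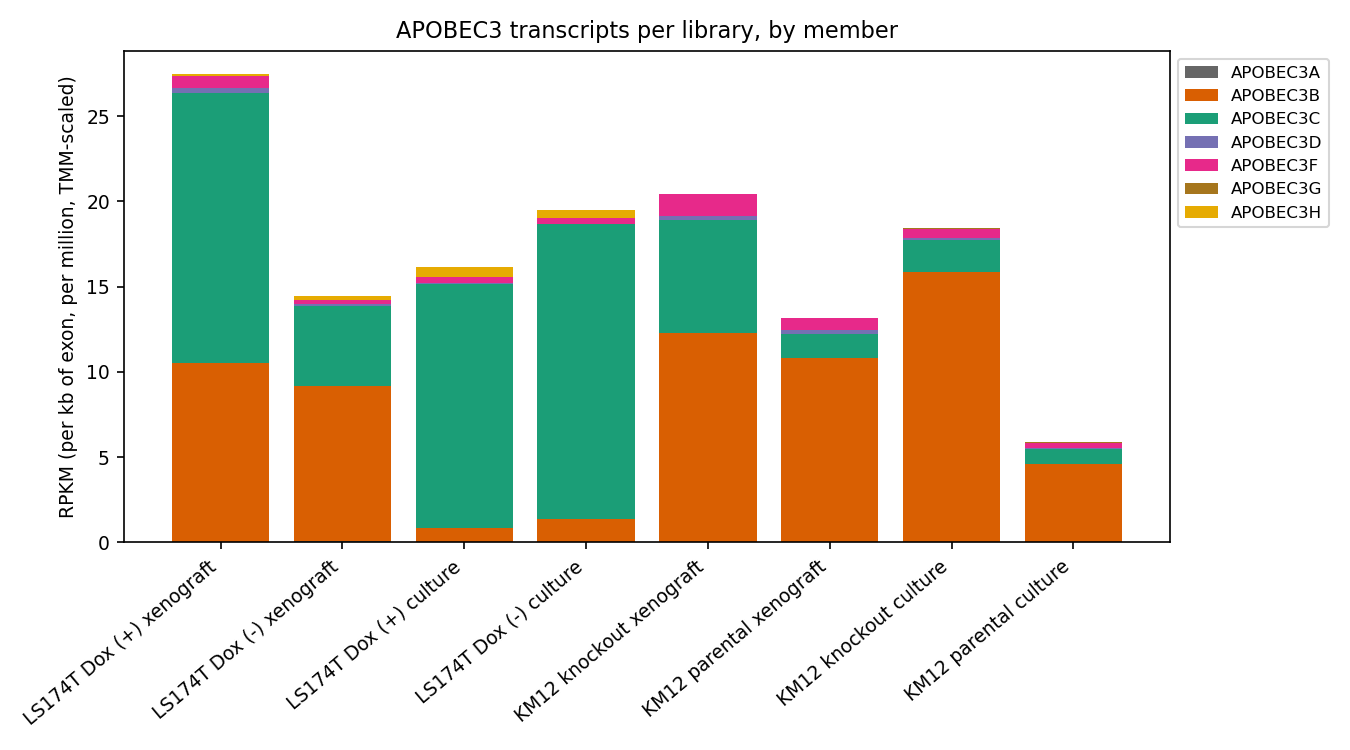
Stacked bars of RPKM for the 7 APOBEC3 genes in each of the 8 libraries (1 library per bar, no error shown), with LS174T left of KM12 and xenografts left of cultures. APOBEC3C fills 88.9% and 88.5% of the LS174T culture bars, and APOBEC3B fills most of each KM12 bar.

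APOBEC3B, a nuclear enzyme with 2 cores, was higher in LS174T xenografts than in LS174T cultures. It had 19.9 CPM in the Dox (+) xenograft and 17.3 CPM in the Dox (-) xenograft, against 1.59 CPM in Dox (+) culture and 2.66 CPM in Dox (-) culture. Both xenografts were far above both cultures, with no overlap. The ratio of xenograft to culture was 12.6 with Dox (95% counting interval 9.30 to 17.3) and 6.49 without (5.14 to 8.27). The fitted log2 difference was 3.15 ± 0.47 (SE, 2 pairs; edgeR quasi-likelihood test, adjusted p = 0.00375). This SE and p use a spread shared by the pairs of both lines. APOBEC3B was the 1 member called of the 3 tested, where 45.9% of all tested genes were called in that comparison.

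In KM12 the pairs disagreed. APOBEC3B had 23.2 CPM in the knockout xenograft and 20.4 CPM in the parental xenograft, against 30.1 CPM in knockout culture and 8.72 CPM in parental culture. The ratio of xenograft to culture was 0.772 in the knockout (interval 0.691 to 0.861) and 2.34 in the parental line (1.98 to 2.76). The fitted log2 difference was 0.41 ± 0.43 (SE, 2 pairs; edgeR, adjusted p = 0.514). None of the 3 members was called in KM12, where 29.8% of tested genes were. DESeq2 called 1 member there, APOBEC3C, and limma-voom called 0. In edgeR 1 member, APOBEC3F, had an unadjusted p under 0.05.

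The difference between the lines was tested itself. The xenograft effect on APOBEC3B was 2.74 ± 0.63 larger in LS174T than in KM12 on the log2 scale (SE, 4 pairs; edgeR, adjusted p = 0.0431). It was again the 1 member of 3 called, against 13.7% of tested genes. Both calls in APOBEC3B were lost when any 1 of the 4 LS174T libraries was left out. The adjusted p was then 0.0601 to 0.0689 for the LS174T effect and 0.179 to 0.212 for the difference between lines, each with the same sign. Without the KM12 parental xenograft, the library with high COL3A1, the difference between lines was 3.51. That fit has 1 residual degree of freedom, from the LS174T pairs, and no spread between KM12 pairs. Over all fits with 1 library left out, the difference ran from 1.92 to 3.52. The lymphocyte marker sum given above was also higher in xenografts, with the T cell markers at or near 0, and its part in the APOBEC3B values was not tested. The epithelial marker sum moved the other way in LS174T. It was 6682 and 9189 CPM in the Dox (+) and Dox (-) xenografts, against 21709 and 27076 CPM in the matching cultures. KRT8 and KRT18 carried most of that fall. KRT8 had 1723 and 2445 CPM in these xenografts, against 11549 and 14657 CPM in the cultures. EPCAM had 744 and 762 CPM, against 705 and 700 CPM. Of the 10 markers, 5 were above 0 and 5 below in LS174T xenografts minus cultures, with a median of -0.09 on the log2 scale. The part of the epithelial sum in the APOBEC3B values was not tested either. With the lines pooled, APOBEC3B was 1.79 ± 0.71 higher in xenografts than in cultures (SE, 4 pairs; edgeR, adjusted p = 0.1104). No member of 3 was called in that pooled comparison, against 26.1% of tested genes, although 1 had an unadjusted p under 0.05, DESeq2 called 1 and limma-voom called 0.

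The cultures carried most of the difference between lines in APOBEC3B. LS174T Dox (+) culture stood at 0.182 times KM12 parental culture (interval 0.131 to 0.249), and LS174T Dox (-) culture at 0.0887 times KM12 knockout culture (0.0704 to 0.1104). The xenografts were close, at 0.979 (0.848 to 1.13) and 0.745 (0.653 to 0.851) for the same pairings. Over all pairs the log2 difference of LS174T minus KM12 was -1.55 ± 0.67 (SE, 4 pairs; edgeR, adjusted p = 0.134).

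**Figure D3:**
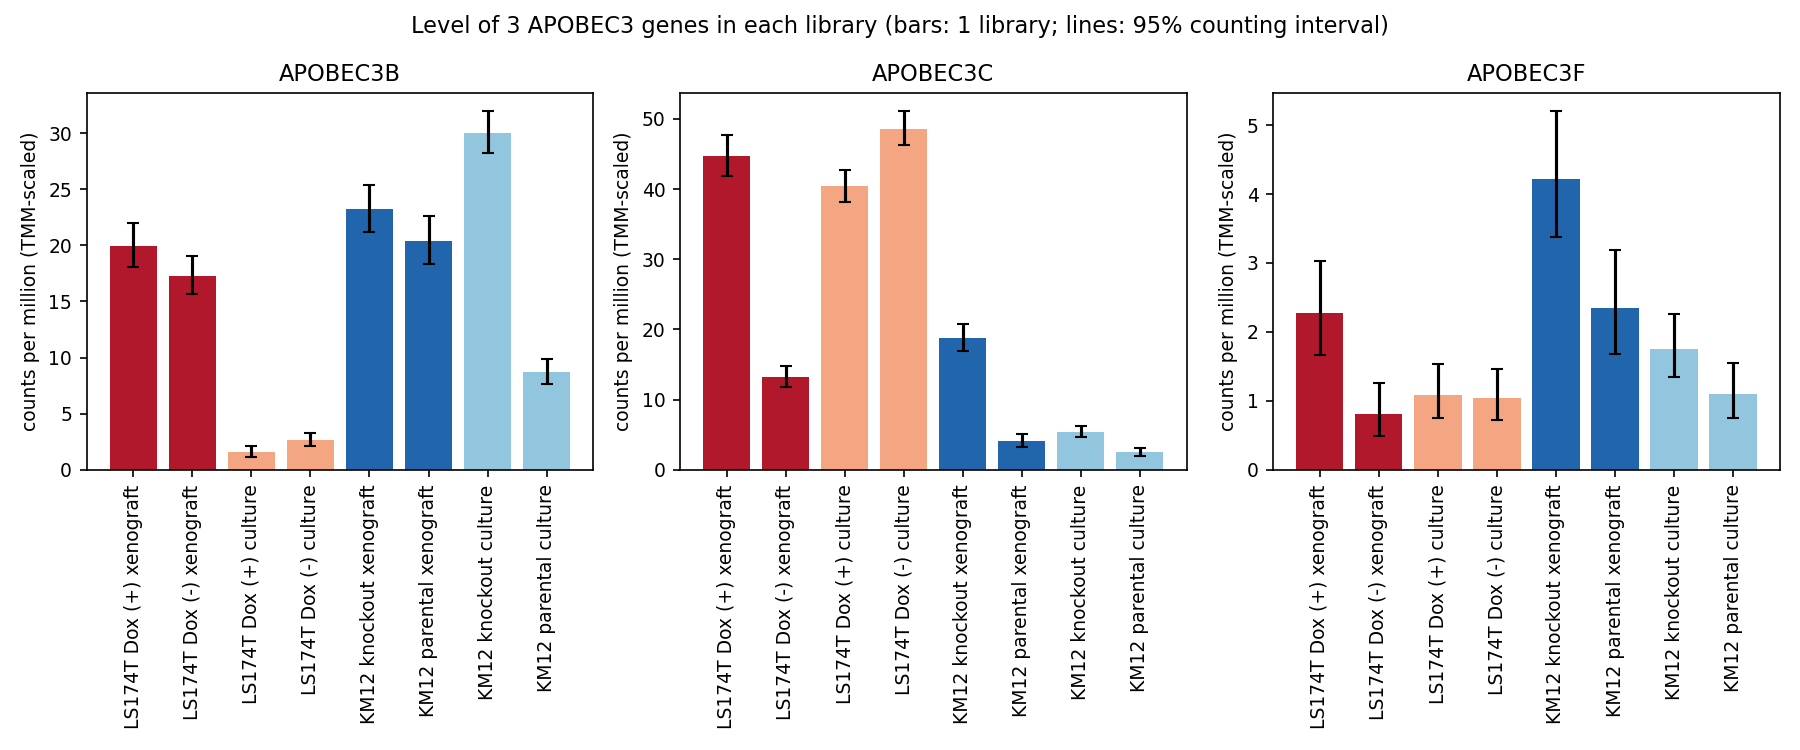
CPM of APOBEC3B, APOBEC3C and APOBEC3F in each of the 8 libraries, with bars for single libraries and lines for 95% counting intervals. The LS174T culture bars of APOBEC3B, at 1.59 and 2.66 CPM, are below all other libraries, and the LS174T bars of APOBEC3C are above every KM12 bar except for the Dox (-) xenograft, at 13.2 CPM, which is below the KM12 knockout xenograft, at 18.8 CPM.

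MKI67, a marker of dividing cells, moved the other way in LS174T. It had 88.5 CPM in the Dox (+) xenograft and 117 CPM in the Dox (-) xenograft, against 326 CPM in Dox (+) culture and 237 CPM in Dox (-) culture. Its log2 difference was -1.45 ± 0.22 (SE, 2 pairs; edgeR, adjusted p = 0.00177). Of 19 DREAM and E2F regulators, 3 were called higher and 4 lower in LS174T xenografts, with a median of -0.09 on the log2 scale against 0.03 over all tested genes. Of 16 NF-kB pathway genes, 1 was called higher and 8 lower there, with a median of -0.44, and both counts stand against 45.9% called of all tested genes. The NF-kB target ICAM1 was at -4.03 ± 0.47, TNFAIP2 at -2.16 ± 0.29 and BIRC3 at -0.41 ± 0.26 (SE, 2 pairs each; edgeR, adjusted p = 0.00058, 0.00236 and 0.226). ICAM1 had 0.194 and 0.406 CPM in the LS174T Dox (+) and Dox (-) xenografts, against 4.70 and 5.18 CPM in the matching cultures. Within LS174T it reached the 1 CPM of the filter only in culture, so its call is no independent support for a fall in xenografts. Their part in the APOBEC3B values was not tested.

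APOBEC3C, a 1-core enzyme that acts on LINE-1 retroelements and weakly on HIV, was higher in LS174T than in KM12 in 3 of 4 pairings. It had 44.7 and 13.2 CPM in the Dox (+) and Dox (-) LS174T xenografts and 40.4 and 48.6 CPM in the Dox (+) and Dox (-) cultures. The matching KM12 libraries had 4.06 CPM in the parental xenograft, 18.8 CPM in the knockout xenograft, 2.47 CPM in parental culture and 5.35 CPM in knockout culture. The groups overlap through the LS174T Dox (-) xenograft, which is below the KM12 knockout xenograft. The ratio of Dox (+) to KM12 parental was 16.4 (12.9 to 21.1) in culture and 11.0 (8.63 to 14.2) in xenografts. The ratio of Dox (-) to KM12 knockout was 9.09 (7.79 to 10.6) in culture and 0.702 (0.604 to 0.816) in xenografts. The fitted log2 difference was 2.71 ± 0.86 (SE, 4 pairs; edgeR, adjusted p = 0.0621), which missed the threshold. No member of 3 was called between lines, against 31.5% of tested genes, with 1 at an unadjusted p under 0.05, 2 called by DESeq2 and 1 by limma-voom.

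The xenograft left APOBEC3C without a common direction. Its ratio of xenograft to culture was 3.51 (2.94 to 4.21) in KM12 knockout and 1.64 (1.17 to 2.31) in KM12 parental. In LS174T it was 1.10 (1.01 to 1.20) with Dox and 0.271 (0.240 to 0.306) without. The xenograft effect in LS174T minus that in KM12 was -2.19 ± 0.88 (SE, 4 pairs; edgeR, adjusted p = 0.196).

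APOBEC3F, a 2-core antiviral enzyme, was low throughout, and its counts ran from 20 to 87 a library. It had 2.27 CPM and 0.812 CPM in the LS174T Dox (+) and Dox (-) xenografts, against 1.09 and 1.04 CPM in the matching cultures. In KM12 it had 4.21 CPM in the knockout xenograft and 2.35 CPM in the parental xenograft, against 1.75 and 1.10 CPM in the matching cultures. Xenografts were above their cultures in 3 of 4 pairs. The ratio was 0.780 in LS174T Dox (-), with an interval of 0.425 to 1.39. The fitted log2 difference in KM12 was 1.18 ± 0.46 (SE, 2 pairs; edgeR, adjusted p = 0.0846).

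**Figure D4:**
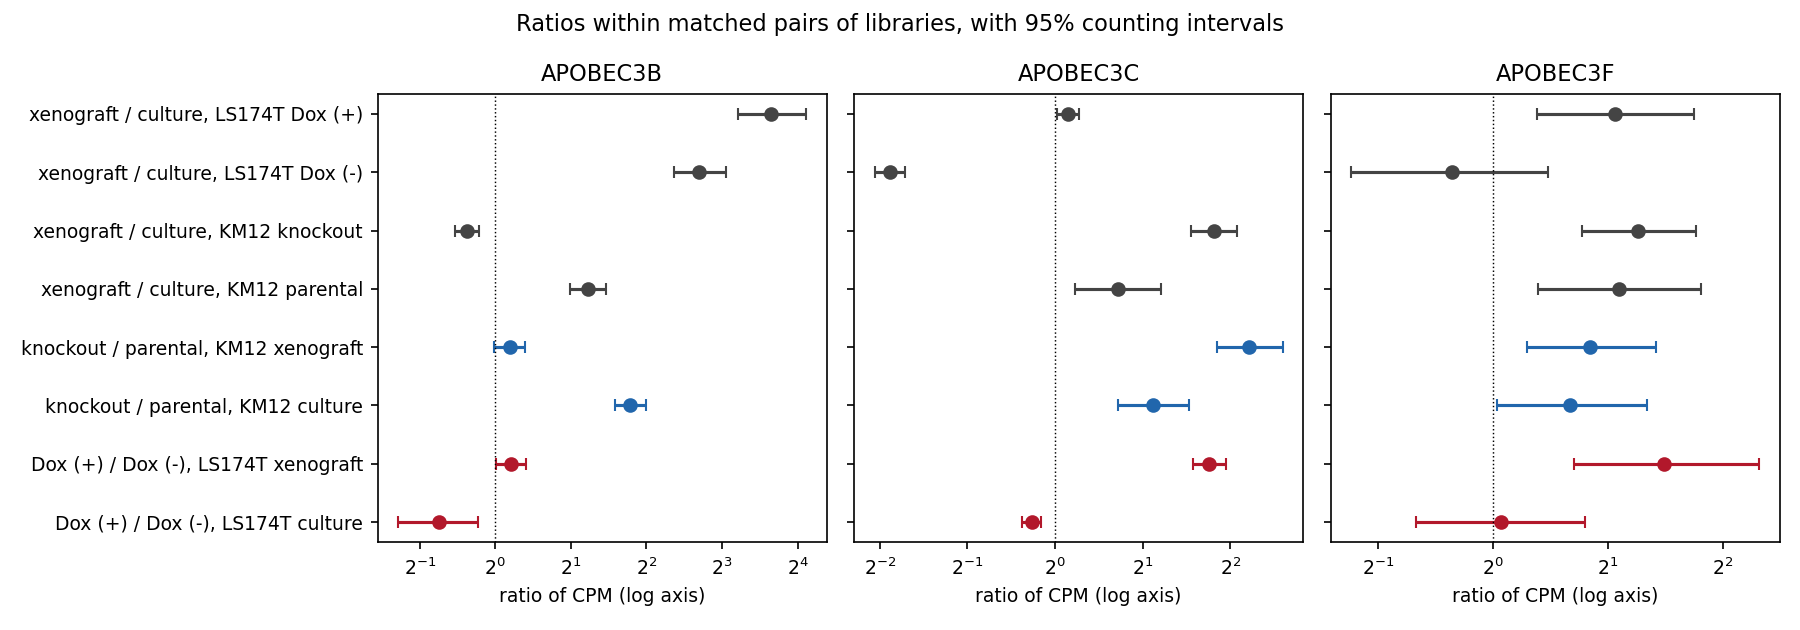
Ratios of CPM within matched pairs of libraries for APOBEC3B, APOBEC3C and APOBEC3F on a log axis, with points for single pairs and lines for 95% counting intervals. The dotted line marks equal levels, and the 12.6-fold and 6.49-fold ratios of APOBEC3B in LS174T lie farthest to the right in its panel.

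The GNAS knockout of KM12 had higher values of all 3 tested members than the parental line in both environments, but none passed the test. APOBEC3B was 3.45 times higher in knockout than in parental culture (interval 3.00 to 3.97) and 1.14 times in xenografts (0.991 to 1.31). APOBEC3C was 2.17 times higher in knockout than in parental culture (1.64 to 2.89) and 4.63 times in xenografts (3.59 to 6.05). APOBEC3F was 1.60 times (1.02 to 2.54) and 1.80 times (1.23 to 2.67) higher. These intervals cover counting error only, in single libraries. The log2 differences of knockout minus parental were 0.99 ± 0.44, 1.67 ± 0.64 and 0.76 ± 0.46 for APOBEC3B, APOBEC3C and APOBEC3F (SE, 2 pairs each; edgeR, adjusted p = 0.860 for each). The APOBEC3B difference was 0.19 without either KM12 culture library and 1.79 without either KM12 xenograft library, each then resting on 1 KM12 pair. No member of 3 was called, against 0.0124% of tested genes, and none had an unadjusted p under 0.05 or was called by DESeq2 or limma-voom.

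In LS174T the 2 Dox pairs differed in direction for APOBEC3B and APOBEC3C. APOBEC3B in Dox (+) stood at 0.596 times Dox (-) in culture (0.410 to 0.857) and 1.15 times in xenografts (1.00 to 1.32). APOBEC3C in Dox (+) stood at 0.832 times Dox (-) in culture (0.772 to 0.897) and 3.39 times in xenografts (2.98 to 3.85). The ratios of APOBEC3F were 1.05 (0.629 to 1.74) and 2.80 (1.63 to 4.99). The log2 differences were -0.20 ± 0.45, 0.73 ± 0.60 and 0.76 ± 0.48 in the same order of genes (SE, 2 pairs each; edgeR, adjusted p = 0.968, 0.936 and 0.936). No member was called by edgeR, DESeq2 or limma-voom, and none had an unadjusted p under 0.05. Over all tested genes 0% were called by edgeR, with 718 at an unadjusted p under 0.05, and DESeq2 called 7 and limma-voom 0.

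With both lines joined, KM12 parental and LS174T Dox (+) were set against KM12 knockout and LS174T Dox (-). Taking Dox (+) as the state with active GNAS is an assumption, since the labels do not say what Dox induces, and in LS174T xenografts GNAS was at 690 CPM with Dox, against 584 CPM without. The log2 differences were -0.61 ± 0.33 for APOBEC3B, -0.41 ± 0.71 for APOBEC3C and -0.04 ± 0.42 for APOBEC3F (SE, 4 pairs each; edgeR, adjusted p = 0.775, 0.902 and 0.985). No member was called by edgeR, DESeq2 or limma-voom, and none had an unadjusted p under 0.05. Over all genes 0% were called by edgeR, with 977 at an unadjusted p under 0.05, and DESeq2 called 53 and limma-voom 0.

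APOBEC3H, a 1-core enzyme with several known protein haplotypes, was counted in LS174T libraries only. It had 3 and 7 counts in the Dox (+) and Dox (-) xenografts and 22 and 19 counts in the matching cultures, against 0 counts in all 4 KM12 libraries. In the shallowest of these, a floor of 3 counts is 0.172 CPM and the two-sided 95% counting interval of 0 counts reaches 0.211 CPM. The 95% counting interval of the ratio began at 5.28 for Dox (+) culture over KM12 parental culture and at 4.89 for Dox (-) culture over KM12 knockout culture. In LS174T its ratio of xenograft to culture was 0.200 (0.0383 to 0.664) with Dox and 0.488 (0.173 to 1.21) without. It did not pass the filter on low counts. In a fit with no such filter its log2 difference between lines had an adjusted p of 0.00629 in edgeR. With 0 counts in all 4 KM12 libraries no pair has a finite ratio, so that p cannot measure disagreement between pairs.

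APOBEC3D, an antiviral 2-core enzyme, had 56 counts over all libraries, from 2 to 13 each. Its values were above culture in 4 of 4 xenografts, with ratios of 8.34 (1.78 to 78.2) in KM12 parental, 6.34 (1.74 to 34.7) in LS174T Dox (+), 2.07 (0.736 to 6.04) in KM12 knockout and 1.99 (0.472 to 9.58) in LS174T Dox (-). APOBEC3G, the best-studied HIV restriction factor of the family, had 19 counts in all, with 0 to 1 in each LS174T library and 0 to 9 in each KM12 library. APOBEC3A, a cytoplasmic and nuclear 1-core enzyme known from myeloid cells, had 10 counts in all, from 0 to 4 each. For APOBEC3G, LS174T Dox (-) culture had 0 counts against 9 in KM12 knockout culture, and the counting interval of that ratio ended at 0.531. For APOBEC3A, the interval of each single-pair ratio included 1.

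Interferon response genes were set beside the family because several members are known targets. Of 26 such genes, 20 were called lower and 1 higher in LS174T xenografts, with a median of -1.80 on the log2 scale against 0.03 over all tested genes, of which 45.9% were called. In KM12 xenografts 16 were called higher and 1 lower, with a median of 1.52 against -0.0011 over all tested genes, of which 29.8% were called. In 20 of the 26 the value was above 0 in KM12 and below 0 in LS174T. The difference between lines was called for 17, all lower in LS174T, against 13.7% of all tested genes, with a median of -3.35. APOBEC3B had the opposite sign in that same comparison, at 2.74. APOBEC3C and APOBEC3F had the sign of the list there, at -2.19 and -0.79, but were not called.

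**Figure D5:**
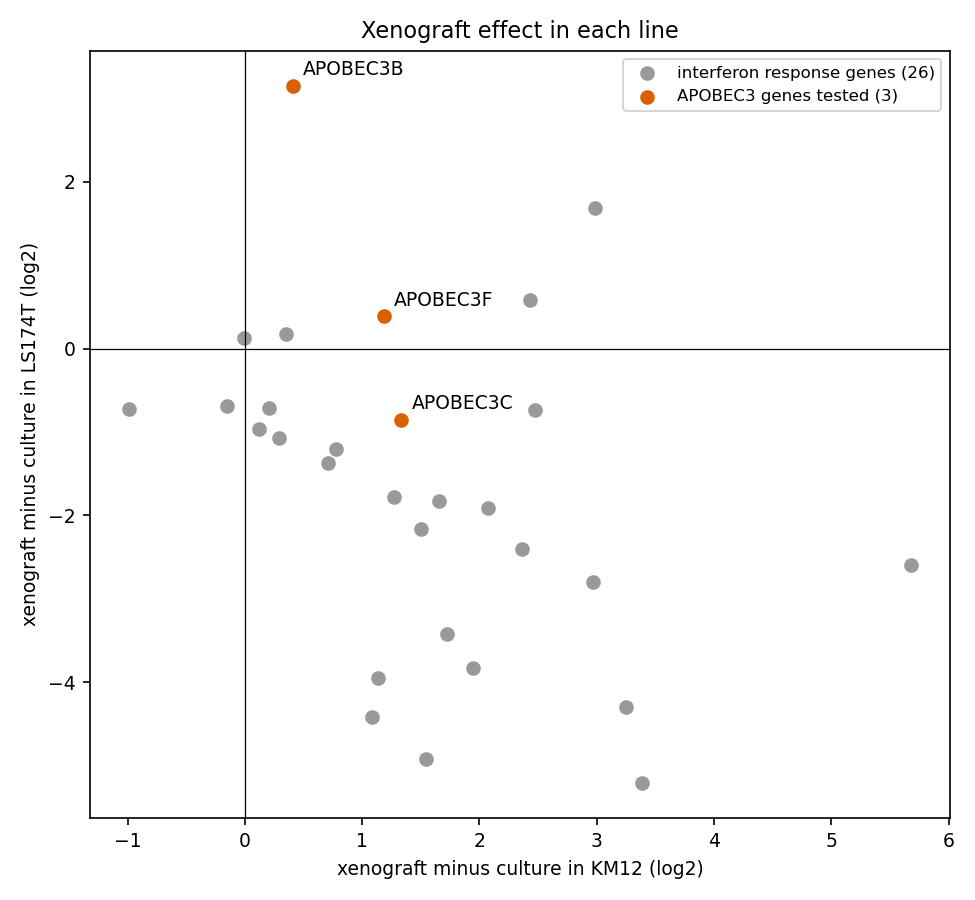
Log2 difference of xenograft minus culture in KM12 (horizontal) and in LS174T (vertical) for 26 interferon response genes (grey) and the 3 tested APOBEC3 genes (orange). Most grey points lie at the lower right, and APOBEC3B lies at 0.41 and 3.15, above all of them.

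Between lines, 6 of the 26 interferon genes were called higher in LS174T and 0 lower, against 31.5% called of all tested genes in either direction, so the share called was below that background. The list had a median of 1.74. IFI27 was at 6.16 ± 0.52, IFITM1 at 6.13 ± 0.46 and IRF7, which drives interferon transcription, at 2.32 ± 0.23 (SE, 4 pairs each; edgeR, adjusted p = 0.00139, 0.000992 and 0.00209). In knockout against parental KM12, 22 of 26 were above 0 and 0 were called, against 0.0124% of all tested genes, with a median of 0.51.

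Uracil left by these enzymes is removed by base excision repair. Of 17 uracil repair genes, 1 was called higher and 7 lower in xenografts over both lines, with a median of -0.31 against 0.02 over all tested genes, of which 26.1% were called. PARP1 was at -0.93 ± 0.12, LIG3, a ligase of the final step, at -0.97 ± 0.13 and the endonuclease APEX2 at -0.98 ± 0.15 (SE, 4 pairs each; edgeR, adjusted p = 0.0111, 0.0111 and 0.0140). Of the 12 relatives and cofactors of the deaminases, 8 passed the filter on low counts and were tested. The RNA-editing deaminase ADAR was the 1 of these 8 called between environments, at -0.98 ± 0.14 (SE, 4 pairs; edgeR, adjusted p = 0.0122). Between lines 4 of the 8 were called higher in LS174T, against 31.5% of all tested genes. Among them were CDA at 4.59 ± 0.67 and APOBEC1, which edits APOB mRNA in the gut, at 2.47 ± 0.54 (SE, 4 pairs each; edgeR, adjusted p = 0.00658 and 0.0209). CDA and APOBEC1 averaged 0.344 and 0.216 CPM in KM12, against 9.50 and 1.01 CPM in LS174T. Both passed the filter only through LS174T libraries, so their calls are no independent support for a difference between lines. Of 13 other restriction factors tested, 0 were called higher and 3 lower in xenografts, against 26.1% called of all tested genes in either direction, which is close to that background, and the list had a median of -0.72. Among them ZC3HAV1, which binds viral RNA, was at -1.42 ± 0.27 and MORC2, a silencer of LINE-1, at -0.92 ± 0.13 (SE, 4 pairs each; edgeR, adjusted p = 0.0206 and 0.0119).

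The genes whose log2 CPM followed APOBEC3B most closely over the 8 libraries were ATP9A (Pearson r = 0.970), ZNF765 (r = 0.969) and TMEM59 (r = 0.969), among 11405 genes compared. For APOBEC3C they were CTNNB1 (r = 0.995), which encodes beta-catenin, MCRS1 (r = 0.966) and TSPAN17 (r = 0.965). All 8 points share 2 lines and 2 environments, and 120 genes had r above 0.9 with APOBEC3B and 92 with APOBEC3C, so these are descriptions. APOBEC3B and APOBEC3C themselves had r = -0.479, and APOBEC3B and APOBEC3F r = 0.567.

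In bulk RNA, fewer cells of a type and less RNA per cell cannot be told apart. The xenograft libraries were all shallower than the cultures, so environment and depth cannot be told apart beyond the scaling to library size.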

How the data were processed

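RNA-seq of 8 libraries, 1 per group, was deposited by the authors as raw counts per human gene. Per the submitters' processing notes, reads were aligned with STAR 2.7.2b and counted with HTSeq 0.11.0, with builds hg38 and GRCm39 named. The annotation release, the strand setting and the treatment of mouse reads are not given in the sources used here. Whether mouse reads, or reads shared by overlapping or near-identical genes, entered the counts was not tested.

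Members and gene lists were chosen with earlier results of these data known. Symbols, exon lengths and sequences came from GENCODE release 29 (GRCh38). The identifier versions in the count table differ from that release for every member except APOBEC3C. The exons counted may thus differ from those used here for lengths and overlaps. CPM used TMM-scaled library sizes, and RPKM the union of annotated exons. The filter asked for 1 CPM or more in 2 libraries or more, and the 16070 genes that passed were tested with edgeR 4.0.16 (robust quasi-likelihood F test, R 4.3.3) with Benjamini-Hochberg adjustment over all of them and a threshold of 0.05. Of the members, 3 passed this filter and 4 did not. For GNAS state, LS174T Dox (+) was joined with KM12 parental as an assumption, since the labels do not say what Dox induces. Environment, line and GNAS state were each tested within 4 matched pairs (3 residual degrees of freedom), and effects within a line with 2 residual degrees of freedom. Effects within a line came from fits of all 8 libraries, so their SE and p share 1 spread over the pairs of both lines. The 2 pairs named with such an SE are those of the effect alone. With 1 library per group, p-values measure the disagreement between pairs of different conditions, not between repeated cultures. The SE is the absolute log2 difference over the square root of F.

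Ratios of single pairs carry 95% conditional binomial intervals, and a floor of 3 counts per library is given for 0 counts. Both cover counting error only. Alternatives were RLE scaling, no filter, DESeq2 1.42.0, limma-voom (limma 3.58.1), leaving out pairs or libraries, additive terms in place of the pairs, another transcript length, a prior count of 0.5 in place of 2 for log2 ratios, and Spearman correlation. The alternatives for each line's own xenograft effect were added after seeing the data. The named genes were the 7 members, the 3 genes most correlated with each member averaging at least 5 CPM, up to 3 genes per list with the smallest p in the environment or line comparison, 3 protein-coding neighbours on each side, GNAS and MKI67. The edgeR script was tested on simulated counts.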

Additional observations from a re-analysis of the deposited data

Results flagged for a closer look

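APOBEC3B differed between the lines in its response to the xenograft. The effect in LS174T minus that in KM12 was 2.743 on the log2 scale (SE 0.63, 4 pairs; edgeR, adjusted p = 0.0431), and the xenograft was higher in 2 of 2 LS174T pairs and in 1 of 2 KM12 pairs.

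APOBEC3F went in opposite directions in the lines in every pair when KM12 parental and LS174T Dox (+) were set against KM12 knockout and LS174T Dox (-). The mean log2 ratio of LS174T Dox (+) to Dox (-) was 0.7335, from ratios of 2.80 (interval 1.63 to 4.99) in xenografts and 1.05 (0.629 to 1.74) in culture, where the interval included 1. The fitted difference ran from 0.066 (without the Dox (-) xenograft) to 1.48 (without Dox (-) culture) when 1 library was left out. KM12 parental was below the knockout in both environments. The test of the difference between lines gave 1.52 ± 0.67 (SE, 4 pairs; edgeR, adjusted p = 0.965), which did not pass the threshold.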

How the results depend on the processing

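The number of APOBEC3 members called depended on the setting in 6 comparisons. Between environments it was 0 and became 1 with DESeq2, and 0 to 1 when 1 pair was left out. Between lines it was 0 and became 1 with no filter (APOBEC3H), 2 with DESeq2, 1 with limma-voom and 1 with additive terms and no replicate block, and 0 to 1 when 1 pair was left out. For the KM12 knockout it was 0 and became 1 with no filter (APOBEC3B, adjusted p = 0.0102), and 0 to 1 when 1 library was left out. There, APOBEC3B was called without the parental xenograft (1.79, adjusted p = 0.0287) or the knockout xenograft (1.79, adjusted p = 0.0221), and it was 0.19 without parental culture (adjusted p = 0.859) or knockout culture (0.19, adjusted p = 0.871). For the difference of the xenograft effect between lines it was 1 and became 2 with DESeq2, and 0 to 1 when 1 library was left out. In LS174T alone it was 1, and 0 to 1 when 1 library was left out. In KM12 alone, with all 8 libraries, it was 0 and became 1 with DESeq2 (APOBEC3C). Fits of that effect with 1 KM12 library left out are given by effect size only, and their calls are not counted here. The APOBEC3B difference there was 1.22 without knockout culture and 1.23 without the knockout xenograft. With 1 KM12 library left out, each KM12 value rests on 1 pair and has no spread of its own. The spread comes from the LS174T pairs, and KM12 is assumed to vary like them. Calls made that way therefore have no check within KM12.

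APOBEC3B passed the pooled environment test without the KM12 knockout pair (2.52, adjusted p = 0.0465), and APOBEC3C the line test without the xenograft pair with low GNAS (3.55, adjusted p = 0.00510). Of 261 member values under alternatives, 224 kept direction and side of the threshold and 15 turned direction, none of the 15 with an adjusted p under 0.432. APOBEC3C between environments was -0.19 with limma-voom, and it ran from -0.35 (without the KM12 knockout pair) to 0.90 as pairs were left out. For GNAS state, APOBEC3C ran from -1.14 to 0.21 (positive without the KM12 xenograft pair) and APOBEC3F from -0.50 to 0.25 (positive without the KM12 culture pair, 0.18, or xenograft pair, 0.25). For Dox, APOBEC3F ran from 0.066 to 1.48, APOBEC3B ran from -0.75 to 0.20 (positive without either culture) and APOBEC3C from -0.27 (negative without either xenograft) to 1.76. In LS174T xenografts, APOBEC3C ran from -1.90 to 0.17 (positive without Dox (-) culture, 0.13, or xenograft, 0.17) and APOBEC3F from -0.38 to 1.08 (negative without Dox (+) culture, -0.38, or xenograft, -0.33). In KM12 xenografts, APOBEC3B ran from -0.38 to 1.23 (negative without parental culture, -0.38, or xenograft, -0.36). The cause was not tested. The order of members by level held for all 21 pairs of genes with the longest transcript as length, and 3 of 6 most similar genes were shared with Spearman correlation. The prior count was scaled to library size, so changing it cannot turn the sign of a single-pair log2 ratio and was no check of direction.

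No paired analysis by replicate number was possible because the labels give no replicate numbers. Counts of at most 22 a library limit APOBEC3A, APOBEC3D, APOBEC3G and APOBEC3H.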

Other observations

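Of the 6 protein-coding neighbours, 3 on each side of the cluster, RPL3 alone was called in the direction of APOBEC3B in LS174T xenografts. Of all 16070 tested genes, 45.9% were called there in either direction and 3758 were called higher. The share called was 29.8% in KM12 xenografts and 13.7% for the difference between lines. The neighbour calls are therefore no result about the locus. RPL3, a ribosomal protein gene, had 2806 and 2425 CPM in the LS174T Dox (+) and Dox (-) xenografts, against 1120 and 1127 CPM in the matching cultures. Its log2 difference was 1.21 ± 0.15 (SE, 2 pairs; edgeR, adjusted p = 0.000629), and its xenograft effect in LS174T minus that in KM12 was 1.33 ± 0.20 (SE, 4 pairs; edgeR, adjusted p = 0.00594). DNAL4, a dynein light chain gene, was at 1.36 ± 0.32 in that difference of effects (SE, 4 pairs; edgeR, adjusted p = 0.0277). It was called lower in KM12 xenografts, at -0.83 ± 0.22, and was not called in LS174T xenografts, at 0.53 ± 0.22 (SE, 2 pairs each; edgeR, adjusted p = 0.0268 and 0.0826). CBX6, a Polycomb protein gene, went the other way from APOBEC3B in LS174T xenografts. It had 6.15 and 1.42 CPM in the LS174T Dox (+) and Dox (-) xenografts, against 14.3 and 11.9 CPM in the matching cultures, a log2 difference of -2.02 ± 0.45 (SE, 2 pairs; edgeR, adjusted p = 0.0216). CBX7 and NPTXR were not called in LS174T xenografts, and PDGFB did not pass the filter on low counts.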
